A study of Rattus norvegicus with 15 samples.

Results

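The WNK kinases, the kinases SPAK and OSR1 that they switch on, and 3 of the cation-chloride cotransporters that they control were described in kidneys of 5-week-old rats. The members were every probe set, on 3 array designs called A, B and C, whose platform annotation gives the symbol Wnk1, Wnk4, Stk39 (SPAK), Oxsr1 (OSR1), Slc12a2, Slc12a3 or Slc12a4. These 7 genes, of 10970 with a symbol of their own on the designs, had 20 of the 26379 probe sets: 12 on A, 5 on B and 3 on C. Of the 20, 14 passed a filter on low values. The study set a congenic strain against the Dahl salt-sensitive rat (Dahl S), in which a salty diet raises blood pressure. The congenic rats carry a donor segment on chromosome 10 of the Dahl S background, but its donor and its ends are not known here. On designs B and C the arrays numbered 4 and 5 hold congenic kidneys (n = 2) and those numbered 1 to 3 Dahl S kidneys (n = 3). On design A numbers 1 to 3 are Dahl S. Numbers 4 and 5 are described there as Dahl S too, yet they carry the numbers of the congenic kidneys, so their strain was left unsettled and they entered no comparison. Whether each array holds a separate animal, and whether a number means the same kidney on each design, is not stated, so a p-value covers the spread between arrays, which may be technical.

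WNK kinases sense intracellular chloride and cell volume. They phosphorylate SPAK and OSR1, which in turn phosphorylate the sodium-coupled chloride carriers and activate them, and phosphorylate the potassium-coupled carriers and inhibit them. In the distal convoluted tubule this cascade sets the activity of the thiazide-sensitive sodium-chloride cotransporter, and human mutations in WNK1 and WNK4 cause a familial hypertension with high potassium. Much of the control acts on phosphorylation, which RNA does not show. Values here are the authors' linear signal intensities, and a probe set's signal cannot be set against that of another, so each is compared between kidneys only. The floor of a design, below which values were not ordered, is the 25th percentile of its values: 85.1 for A, 140.1 for B, 153.6 for C. A whole kidney mixes many cell types, so that fewer cells of a type and less RNA per cell cannot be told apart.

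The arrays of a design had median signals of 294.5 to 334.3 (A), 472.8 to 519.5 (B) and 491.3 to 524.4 (C), and 5 arrays a design limit the precision. Kidney markers were present: on A, 12 of 12 probe sets of proximal tubule markers, 9 of 10 of thick ascending limb markers and 5 of 9 of distal convoluted tubule markers passed the filter on low values, and 0 of 7 of neuronal markers did. Those 5 of the distal convoluted tubule include both probe sets of Slc12a3, which is itself a member. None of these markers was at 0, but no value of A was (lowest 0.1), so this does not show detection. Pvalb, a calcium-binding protein that marks the early distal convoluted tubule, stayed below the filter on A at 149 to 278.

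No member differed between the strains past the threshold. Of 3 member probe sets tested on B and 2 on C, 0 passed an adjusted p of 0.05 with limma, where 0.0912% of the 4385 tested probe sets passed on B and 0% of the 4420 on C. At an unadjusted p under 0.05 there was 1 member on each design, Slc12a2 on B and Oxsr1 on C, beside 3.49% of all tested probe sets on B and 6.20% on C. In the fit without a filter the member on C was no longer under it (0 of 3, beside 5.62% of all). Strain values did not overlap for the same 2 members. On B, values without overlap were found for 9.44% of tested probe sets with the congenic kidneys lower and for 7.73% with them higher, and on C for 12.2% and 10.2%. On B the difference was negative for all 5 member probe sets, those below the filter included, beside 43.7% of all probe sets fitted without a filter (39.6% were positive and the rest at the floor in every kidney). On C it was negative for 1 of 3, beside 39.1%.

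Wnk1 encodes the widely expressed WNK kinase, whose gene also gives a kidney-specific short transcript without most of the kinase domain. Which of the transcripts each probe set reads was not determined. The probe set rc_AI227938_at on C read 14096 and 11836 in congenic kidneys 4 and 5, and 12886, 15041 and 14957 in Dahl S kidneys 1 to 3. The values overlapped, with kidney 4 among the Dahl S kidneys and kidney 5 below them. The log2 difference, congenic minus Dahl S, was −0.14 (95% interval −0.50 to 0.22, limma adjusted p = 0.891), an interval of 0.706 to 1.16 for the ratio of congenic to Dahl S. The probe set rc_AA899126_s_at on B read 943 and 1157 in congenic kidneys and 1132, 1378 and 1426 in Dahl S kidneys. Kidney 4 lay below every Dahl S kidney and kidney 5 just above Dahl S kidney 1, for a log2 difference of −0.32 (interval −0.73 to 0.08, limma adjusted p = 0.998). Without congenic kidney 4 it was −0.17, and without congenic kidney 5 it was −0.47. The third Wnk1 probe set, rc_AI011345_at on B, was close to the floor, at 158 and 92 in congenic kidneys and 59, 154 and 191 in Dahl S kidneys. It was below the filter, and 2 of its 5 values lay below the floor.

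**Figure D1:**
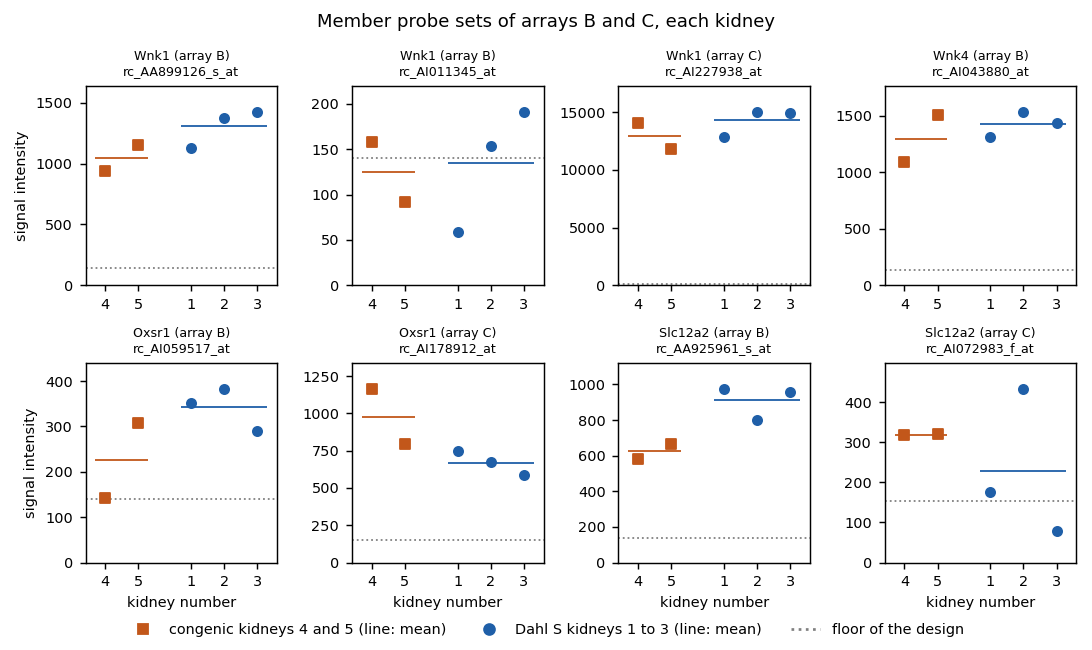
Signal intensity of the 8 member probe sets of arrays B and C in each kidney, on linear axes that start at 0 and differ between panels. Squares are congenic kidneys 4 and 5, circles Dahl S kidneys 1 to 3, solid lines group means and the dotted line the floor of the design. Only the Slc12a2 panel of array B (584 and 668 against 799 to 975) and the Oxsr1 panel of array C (1164 and 793 against 584 to 747) show groups that do not overlap.

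Wnk4 encodes the WNK kinase that regulates the sodium-chloride cotransporter in the distal nephron, and it is the 1 member gene on chromosome 10. Its probe set rc_AI043880_at on B read 1089 and 1509.9 in congenic kidneys and 1317, 1537 and 1437 in Dahl S kidneys. Congenic kidney 4 lay below the Dahl S kidneys and congenic kidney 5 among them. The group levels were 1299.6 ± 297 in congenic kidneys (SD, n = 2) and 1429.9 ± 110.2 in Dahl S kidneys (SD, n = 3). The log2 difference was −0.15 (SE 0.18, interval −0.58 to 0.27, limma adjusted p = 0.998), and it turned to 0.08 without congenic kidney 4. As a ratio of congenic to Dahl S the interval runs from 0.668 to 1.21.

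The tested genes nearest to Wnk4 were described because of its place on the chromosome. In the RefSeq order of GRCr8, Wnk4 is number 1414 of 1788 protein-coding genes of chromosome 10, between Vps25 and Coa3. Of the 5 tested genes on each side, 13 probe sets were tested on B or C, 7 with a positive and 6 with a negative difference, and 0 passed the threshold with limma (1 at an unadjusted p under 0.05, beside 3.49% of all tested probe sets on B and 6.20% on C). That one, rc_AI011176_f_at on B, is annotated to Ramp2, a receptor partner for adrenomedullin. Its suffix marks probes shared by a family of sequences. It read 686 and 586 in congenic kidneys and 1107, 1375 and 812 in Dahl S kidneys (log2 difference −0.76, limma adjusted p = 0.998). The other Ramp2 probe set of B did not share this difference, at 4427 and 4703 in congenic kidneys and 4879, 4557 and 4092 in Dahl S kidneys. Ezh1, a histone methyltransferase gene, had differences of 0.02 on B and 0.54 on C. Vps25, the gene next to Wnk4, had 0.03 on C.

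**Figure D2:**
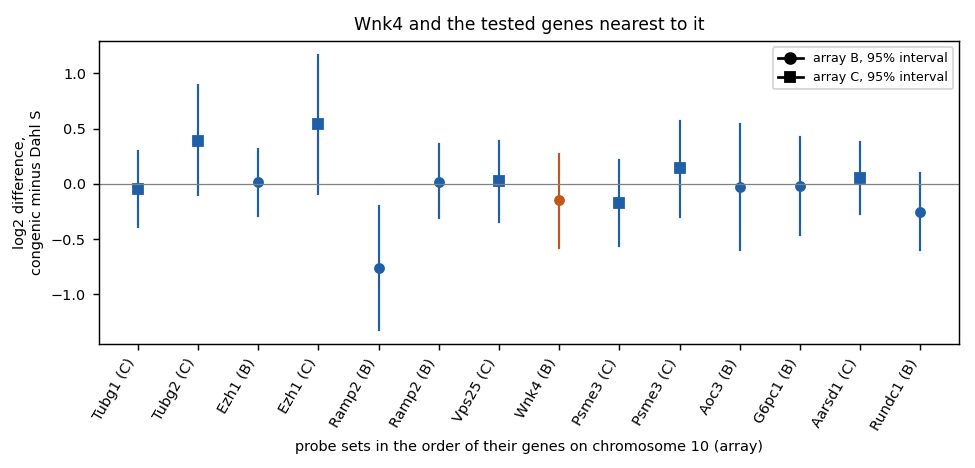
Log2 differences, congenic minus Dahl S, of Wnk4 (orange) and of the tested probe sets of the 5 nearest tested genes on each side (blue), in gene order on chromosome 10. Circles are array B, squares array C and bars 95% limma intervals. Wnk4 lies at −0.15, and the neighbours between −0.76 and 0.54, with the intervals of all but 1 Ramp2 probe set covering 0.

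Stk39 encodes SPAK, the kinase that carries the WNK signal to the cotransporters, and its 3 probe sets are all on A. D88190_s_at read 3772 and 4247 in kidneys 4 and 5, and 2936, 3516 and 3012 in Dahl S kidneys 1 to 3 (3155 ± 315, SD, n = 3). Both kidneys of unsettled strain lay above the Dahl S values. The share of all probe sets of A with this order was not counted. On B and C kidneys 4 and 5 both lay above the Dahl S kidneys for 7.73% and 10.2% of tested probe sets. AF068261_s_at read 491 and 654 in kidneys 4 and 5, and 465, 467 and 492 in Dahl S kidneys, which differed little among themselves (CV 3.20%, against a median of 13.1% over the 4411 probe sets past the filter). Here only kidney 5 stood above the Dahl S range. The third probe set, rc_AI043684_at, read 195 and 359 in kidneys 4 and 5 and 289, 401 and 445 in Dahl S kidneys. Kidney 4 was below the Dahl S range in this one, so the 3 probe sets of Stk39 do not rank the kidneys alike.

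Oxsr1 encodes OSR1, the close relative of SPAK, which in mice acts mainly in the thick ascending limb. On C it read 1164 and 793 in congenic kidneys and 747, 678 and 584 in Dahl S kidneys. Both congenic values lay above the Dahl S values, kidney 5 only just. The log2 difference was 0.53 (SE 0.20, unadjusted p = 0.0329, limma adjusted p = 0.775), 0.25 without congenic kidney 4 and 0.81 without congenic kidney 5. On B the Oxsr1 probe set was below the filter, with 143 and 309 in congenic kidneys and 352, 383 and 290.4 in Dahl S kidneys (log2 difference −0.69, interval −1.91 to 0.52 in the fit without a filter). The value of kidney 4 lay at the floor of B (140.1), and the strain values overlapped. The probe set on A read 176 and 152 in kidneys 4 and 5 and 73, 161 and 61 in Dahl S kidneys, with 2 of 5 values below the floor.

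Slc12a2 encodes the sodium-potassium-chloride cotransporter of the basolateral membrane in many cell types. On B its probe set rc_AA925961_s_at read 584 and 668 in congenic kidneys and 975, 799 and 958 in Dahl S kidneys. The suffix _s_at, here and on other member probe sets, marks probes that may match more than 1 transcript. Every congenic value lay below every Dahl S value. The log2 difference was −0.54 (SE 0.15, interval −0.91 to −0.17), a level 1.45-fold lower in congenic kidneys. It did not pass over the design (unadjusted p = 0.0110, limma adjusted p = 0.998), ranking 31 by p among the 4385 tested probe sets. Leaving out 1 array at a time gave −0.64 to −0.44.

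The other Slc12a2 probe sets did not all follow. On C rc_AI072983_f_at, whose suffix marks probes shared by a family of sequences, read 317 and 320.2 in congenic kidneys and 176, 433 and 79 in Dahl S kidneys. Its Dahl S values enclosed the congenic ones, and it was below the filter. On A, AF051561_s_at read 388 and 595 in kidneys 4 and 5 and 599, 472 and 512 in Dahl S kidneys. S82233_s_at read 250.2 and 339 in kidneys 4 and 5 and 299, 386 and 393 in Dahl S kidneys. In both of these kidney 4 was below the Dahl S range and kidney 5 within it. The remaining pair was below the filter on A, AF086758_g_at at 188 and 261 in kidneys 4 and 5 and 116 to 213 in Dahl S kidneys, and AF086758_at at 81 and 135 in kidneys 4 and 5 and 41 to 103 in Dahl S kidneys.

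Markers of some cell types of the kidney were read on the same arrays, and none of those tested passed the threshold between strains. The markers listed for proximal tubule and for principal cells had no probe set on B or C. Those of thick ascending limb and smooth muscle had none on B, and those of intercalated cells and blood none on C. Where a list had several probe sets its sum is given, in which the brightest weighs most, with the median log2 deviation from the Dahl S mean. On B the 4 tested endothelial probe sets (Cdh5, Pecam1 and Tek) summed to 4787 and 4439 in congenic kidneys and to 3979 to 4376 in Dahl S kidneys. Their median deviations were 0.16 and 0.02 in congenic kidneys and −0.05 to 0.09 in Dahl S kidneys. The sums did not overlap between strains, while the medians did.

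The 3 leukocyte probe sets of B summed to 8446 and 10443 in congenic kidneys and to 7936 to 12422 in Dahl S kidneys, with Fcer1g the brightest. Their median deviations were −0.60 and −0.05 in congenic kidneys and −0.33 to 0.28 in Dahl S kidneys. Podxl, a podocyte and endothelial sialomucin, read 5106 and 3188 in congenic kidneys of B and 2469 to 3010.4 in Dahl S kidneys. Its congenic values lay above the Dahl S values. Slc8a1, the sodium-calcium exchanger that marks the distal convoluted tubule, read 4763 and 4470.4 in congenic kidneys and 3596 to 4341 in Dahl S kidneys, also without overlap. The intercalated cell markers Slc26a4 and Slc4a1 had median deviations of 0.01 and 0.06 in congenic kidneys and −0.05 to 0.05 in Dahl S kidneys. Hba-a1, a haemoglobin chain, had deviations of 0.04 and 0.18 in congenic kidneys and −0.11 to 0.16 in Dahl S kidneys.

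On C the smooth muscle markers Acta2 and Tagln summed to 2700.2 and 3716 in congenic kidneys and to 3737 to 4604 in Dahl S kidneys. Their median deviations were −0.45 and −0.29 in congenic kidneys and −0.09 to 0.09 in Dahl S kidneys. Both congenic kidneys were below the Dahl S kidneys by either measure, but the 2 probe sets differed. Acta2 read 682 and 539 in congenic kidneys and 748 to 823 in Dahl S kidneys. Tagln read 2018 and 3177 in congenic kidneys and 2986 to 3856 in Dahl S kidneys, with overlap. The 2 leukocyte probe sets (Cd68 and Laptm5) had median deviations of −0.49 and −0.01 in congenic kidneys and −0.44 to 0.31 in Dahl S kidneys. Podxl read 1887 and 1246 in congenic kidneys and 777 to 1327 in Dahl S kidneys. Calb1 read 14905 and 15222 in congenic kidneys and 10819 to 15132 in Dahl S kidneys, and these values overlapped. Cldn19, a claudin of the thick ascending limb, read 3135 and 3907 in congenic kidneys and 3885 to 4052 in Dahl S kidneys. The endothelial marker Cdh5 read 633 and 663 in congenic kidneys and 623 to 668 in Dahl S kidneys. None of these markers was at 0 on B or C, which by itself does not show detection. The part of the markers in the Slc12a2 and Oxsr1 values was not tested.

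**Figure D3:**
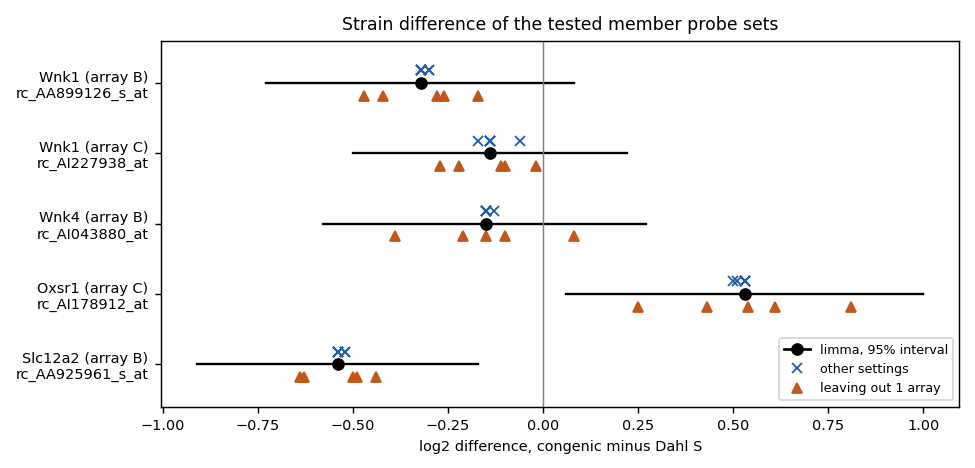
Log2 difference, congenic minus Dahl S, of the 5 tested member probe sets with its 95% limma interval (black), under 6 other settings (blue crosses) and with 1 array left out (orange triangles). The unadjusted intervals of Slc12a2 on B (−0.54) and Oxsr1 on C (0.53) leave out 0. Neither passed the threshold (limma adjusted p = 0.998 and 0.775). Oxsr1 falls to 0.25 and Wnk4 reaches 0.08 when congenic kidney 4 is left out.

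Congenic kidney 4 was the lowest of the 5 kidneys in 4 of the 5 member probe sets of B, and in 3 of the 3 tested ones. Over all tested probe sets of B it was the lowest in 23.2%. On C it was the lowest in 0 of 3 member probe sets, beside 21.6% of those tested. On A kidney 4 was the lowest in 3 of the 9 members past the filter, beside 28.6%.

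Slc12a3 encodes the thiazide-sensitive sodium-chloride cotransporter of the distal convoluted tubule, and both of its probe sets are on A. U10097_at read 4181 and 3373 in kidneys 4 and 5, and 3228, 5038 and 4939 in Dahl S kidneys 1 to 3 (4401 ± 1018, SD, n = 3). Both kidneys of unsettled strain lay within the Dahl S range, which was itself wide (CV 23.1%). The second probe set, rc_AA965132_s_at, read 2241 and 553 in kidneys 4 and 5, and 733, 788 and 748 in Dahl S kidneys (756 ± 28.5, SD, n = 3). Kidney 4 was 2.96 times the Dahl S mean and kidney 5 was below every Dahl S value. The probe sets of the gene thus disagree on kidney 4. The suffix of the second, which other members such as Stk39 and Wnk1 also carry, marks probes that may match more than 1 transcript. Calb1, a calcium-binding protein of the distal tubule, did not stand out in kidney 4 of A, and read 11464 and 11726 in kidneys 4 and 5 and 10532, 14602 and 13323 in Dahl S kidneys. Other tubule markers varied. Median deviations in kidney 4 were −0.05 for distal convoluted tubule, 0.07 for proximal tubule and 0.03 for intercalated cells. They were 0.27 for thick ascending limb (−0.03 to 0.15 in Dahl S kidneys) and 0.33 for principal cells of the collecting duct (−0.06 to 0.06). The part of these markers in the Slc12a3 value was not tested.

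Across the 5 arrays of A, the 3 probe sets of other genes with a pattern most like that of rc_AA965132_s_at belonged to Lpl, Pck1 and Hsd17b4 (root mean square difference 0.174, 0.187 and 0.232 on the log2 scale, of 3682 probe sets compared). Lpl encodes lipoprotein lipase, Pck1 the gluconeogenic enzyme PEPCK and Hsd17b4 a peroxisomal enzyme of fatty acid oxidation. Pck1 read 14299 and 5010.2 in kidneys 4 and 5 and 5048, 5358 and 4802 in Dahl S kidneys. Lpl read 2397 and 791 in kidneys 4 and 5 and 781, 805 and 866 in Dahl S kidneys. In all 3, kidney 4 stood above the rest and kidney 5 lay within or near the Dahl S range. For Slc12a2 on B the most alike were Clic2, Fbn1 and Psmb9 (0.044, 0.076 and 0.083, of 3330), and for Oxsr1 on C Rgs4, Cd3e and Slc39a14 (0.054, 0.086 and 0.096, of 3505). With 5 arrays, likeness is a description only.

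**Figure D4:**
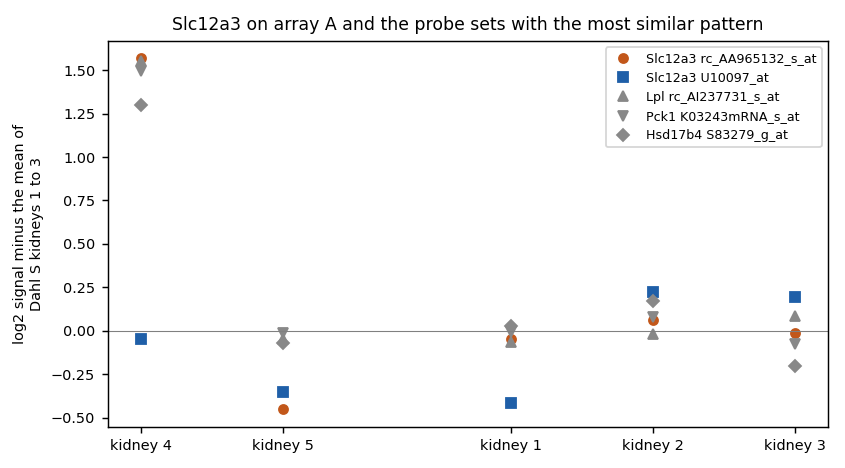
Log2 signal on array A, minus the mean of Dahl S kidneys 1 to 3, for the Slc12a3 probe sets rc_AA965132_s_at (orange circles) and U10097_at (blue squares) and for the 3 most similar probe sets, of Lpl, Pck1 and Hsd17b4 (grey). In kidney 4 the orange and grey points stand far above 0 (2241 against a Dahl S mean of 756 for Slc12a3), and the blue square (4181 against 4401) does not.

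Slc12a4 encodes a potassium-chloride cotransporter of cell volume control, and both of its probe sets are on A. U55815_at read 624 and 555 in kidneys 4 and 5 and 678, 604 and 518 in Dahl S kidneys. The kidneys of unsettled strain lay within the Dahl S range. The other, rc_AI639049_s_at, read 619.5 and 503 in kidneys 4 and 5 and 568, 702 and 352 in Dahl S kidneys, again with kidneys 4 and 5 inside the range. Its spread within Dahl S (CV 32.6%) was larger than that of 94.2% of the probe sets past the filter, while that of U55815_at (CV 13.4%) was close to the median of the design.

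**Figure D5:**
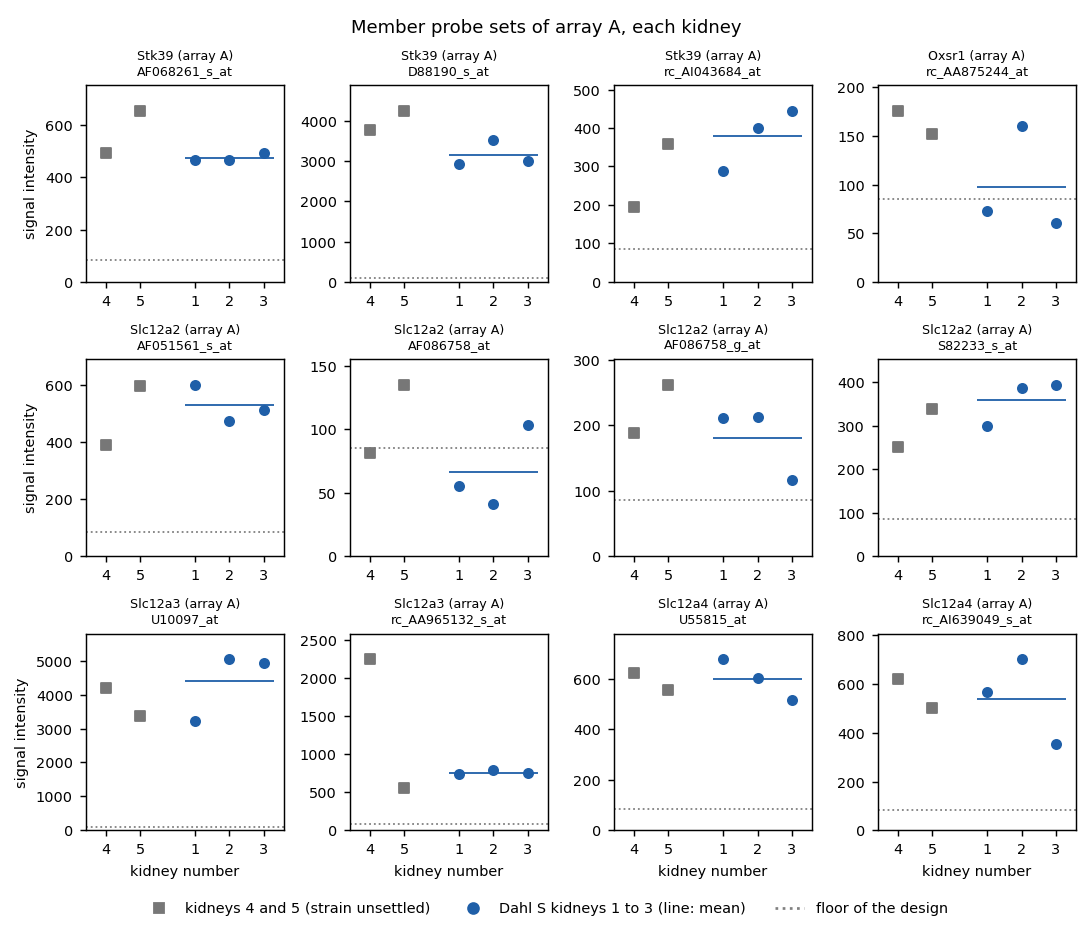
Signal intensity of the 12 member probe sets of array A in each kidney, on linear axes that start at 0 and differ between panels. Grey squares are kidneys 4 and 5, whose strain is unsettled, blue circles Dahl S kidneys 1 to 3, the line their mean and the dotted line the floor of 85.1. Kidney 4 of Slc12a3 rc_AA965132_s_at (2241) stands far above the other kidneys (553 to 788).

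A list of 31 further genes, of regulators, partners and other carriers, had 12 probe sets of 10 genes tested on B and 9 of 8 genes on C. Most of the list was thus not tested on each design. None passed the threshold with limma, and 0 had an unadjusted p under 0.05 on either design. As 3.49% of all tested probe sets on B and 6.20% on C were under it, a count of 0 among so few does not set the list apart. On B 5 were higher and 7 lower in congenic kidneys (median log2 difference −0.03, beside −0.01 over all tested probe sets), and on C 5 were higher and 4 lower (0.07, beside −0.01). The smallest p on B belonged to Nedd4, a ubiquitin ligase, at 1791 ± 54.1 in congenic and 2136 ± 164 in Dahl S kidneys (SD, n = 2 and 3; limma adjusted p = 0.998). Next came Klhl2, an adapter of the Cul3 ubiquitin ligase that degrades WNK kinases, at 545 ± 14.8 against 683 ± 112, and Ppp3cb, a calcineurin subunit, at 1372 ± 155 against 1051 ± 268, congenic kidneys first. On C the smallest p was that of a Nedd4 probe set, at 2226 ± 87.9 in congenic and 2593 ± 11.8 in Dahl S kidneys (log2 difference −0.22, adjusted p = 0.865 with limma). The other tested Nedd4 probe set of C read 7957 and 8809 in congenic kidneys and 9565, 8249 and 8869 in Dahl S kidneys. Its strain values overlapped (log2 difference −0.08). Cul3, the ubiquitin ligase scaffold, read 902 ± 144 in congenic and 778 ± 86.9 in Dahl S kidneys there, and Bsnd, a chloride channel subunit, 1993 ± 142 in congenic and 1821 ± 146 in Dahl S kidneys.

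Of the other carriers of the family, Slc12a8 and Slc12a9 were tested on B (log2 differences −0.28 and 0.04, limma adjusted p = 0.998 for each). Further carriers were measured on A without a strain comparison. Slc12a1, the loop diuretic-sensitive cotransporter of the thick ascending limb, read 1117 and 789 in kidneys 4 and 5 and 870.4, 1173 and 999.5 in Dahl S kidneys. Slc12a7, a potassium-chloride cotransporter, read 1166 and 1279 in kidneys 4 and 5 and 1058, 697 and 1321 in Dahl S kidneys. Slc12a5, the neuronal potassium-chloride cotransporter, lay far below the floor of 85.1 in every kidney, at 19.9 and 11.3 in kidneys 4 and 5 and 12.6 to 21.5 in Dahl S kidneys.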

How the data were processed

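Kidney RNA was hybridised to 15 single-channel oligonucleotide arrays of 3 designs. The authors deposited a linear intensity for each probe set, and the values show that they had scaled the arrays: the mean trimmed by 2% at each end was within 1000.57 to 1001.35 on all of them. The software and any background correction were not stated in the labels. Within a design, values under the 25th percentile were set to it, then log2 was taken. A probe set was tested if its mean over the 5 arrays was at least the median of the design (319.5 for A, 485.8 for B, 510.3 for C), and 59 control probe sets per design were dropped. Congenic and Dahl S kidneys were compared over the 4385 probe sets of B and the 4420 of C using limma 3.58.1 (R 4.3.3; lmFit, eBayes, no trend), with Benjamini-Hochberg adjustment and a threshold of 0.05. The procedure was tested on simulated data.

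Each probe set was described on its own. All 7 genes matched RefSeq by identifier, and assembly GRCr8 gave chromosomes and gene order only. Of the pathway list, the 3 probe sets with the smallest p on B and on C were named. For likeness, the member with the smallest p (B, C) or the largest SD (A) was taken, and the 3 probe sets of other genes with the smallest root mean square difference of centred log2 values were named. The members and lists were chosen with earlier results of these data known. Alternatives were other scalings, floors and variance models, no filter, and leaving out each array.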

Additional observations from a re-analysis of the deposited data

Results flagged for a closer look

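On array A the Slc12a3 probe set rc_AA965132_s_at read 2241 in kidney 4, which enters no comparison because its strain is unsettled, against at most 788 in Dahl S kidneys 1 to 3. It was looked for as a value over 2 times the highest Dahl S kidney, a limit set after the data were seen. Of the 4411 probe sets of A past the filter, 30 met it in kidney 4 and 3 in kidney 5. The other Slc12a3 probe set read 4181 in kidney 4, within the Dahl S range. The cause was not tested.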

How the results depend on the processing

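The count of member probe sets past the threshold was 0 on B and on C under all 11 alternatives tried on each. Most of these called few probe sets of any gene, 0 to 4 on B and 0 to 2 on C, so a member count of 0 there shows little about stability. Without congenic kidney 5, 31 probe sets passed on B and 35 on C, and no member was among them. The log2 differences of the tested members kept their sign, except that of Wnk4 on B, which ran from −0.39 to 0.08 when 1 array was left out and was positive without congenic kidney 4. The ranges with 1 array left out were −0.47 to −0.17 for Wnk1 and −0.64 to −0.44 for Slc12a2 on B, and −0.27 to −0.02 for Wnk1 and 0.25 to 0.81 for Oxsr1 on C. Over all alternatives the lowest limma adjusted p of a member was 0.465 on B (Slc12a2, without congenic kidney 5) and 0.274 on C (Oxsr1, without congenic kidney 5). With quantile normalization Wnk1 on C moved to −0.06. The Dahl S means of the members of A moved by less than their SD under the other scalings. Leaving out 1 of 3 arrays cannot move a mean by as much as its SD, so it is no test, and the mean of Oxsr1 on A ranged from 66.7 to 117. No paired analysis was possible because congenic and Dahl S kidneys share no number. With 2 congenic arrays a design, either of them sets much of a difference, and probe sets near the floor give no order of kidneys. Probe sets of a gene that disagree were not resolved here.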
